A study of Triticum aestivum and Triticum urartu with 56 samples.

Results

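Transcription start sites of the booting spike of bread wheat were described from 2 CAGE libraries and set against 9 libraries of seedlings, immature embryos and roots. Tag positions at most 20 bp apart on the same strand were joined within each tissue, and a cluster was kept with at least 2 tags in each of 2 libraries and a mean of at least 0.1 RPM (its tags scaled to a fixed library total). This gave 44711 spike clusters, 65403 seedling clusters, 34573 embryo clusters and 65713 root clusters, which merged into 134180 clusters over the 4 tissues. Of these, 43334 contained a spike cluster. The lowest spike cluster averaged 0.205 RPM, so the tag minimum and not the RPM minimum set the limit, and the median was 3.75 RPM.

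The series holds 56 samples, and the 11 libraries used here all came from untreated plants of the cultivar Chinese Spring. The spike group consists of spikelets at booting stage (Feeke 10; 2 libraries), and the comparison groups are immature embryos at 14 days post anthesis (3 libraries), the above-ground parts of seedlings grown for 9 days (4 libraries) and roots grown for 9 days in Hoagland solution (2 libraries). These identities follow the titles and the age and tissue field of the labels, while another label field calls all 11 samples seedlings of a different age. The spike chromatin data, with 1 library per mark, are lists of H3K4me3 and H3K9ac peaks from wild-type spikelets at the same stage of another cultivar, JW1. Nothing in the labels says that replicates came from separate plants, so p-values measure the spread between libraries.

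CAGE reads the capped 5′ end of an RNA, and each tag marks the base at which transcription began. A promoter can start at a narrow set of bases or over a wide stretch, and neighbouring promoters on opposite strands can fire away from each other as a divergent pair. H3K4me3 and H3K9ac are histone marks of active promoters, and in plants they lie mostly downstream of the start site. At booting the wheat spike is enclosed in the flag leaf sheath while its florets form stamens, pistils and pollen. In whole organs, fewer cells of a type and less RNA per cell cannot be told apart.

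The spike libraries held 6084818 and 24399682 tags, against 2970800 to 19980139 tags in the other libraries. A count of 0 tags allows up to 0.493 RPM in spike replicate 1 and 0.123 RPM in spike replicate 2, for counting error only. Merged clusters took 81.4% and 78.1% of the spike tags, and 75.5% to 91.5% of the tags elsewhere. Across merged clusters, log2(RPM + 0.1) of the spike libraries correlated at r = 0.75 with each other and at 0.21 to 0.36 with the other libraries. These correlations run across clusters, which are not independent replicates.

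Spike clusters differed in how many tissues shared them. Of the 43334, 15513 (35.8%) had a cluster in no other tissue, 9435 (21.8%) in 1 other, 8846 (20.4%) in 2 others and 9540 (22.0%) in all 3 others. The share found in no other tissue was larger for each of the other tissues. It was 34005 of 64277 merged clusters for seedling, 13207 of 33414 for embryo and 30269 of 64173 for root. In edgeR's quasi-likelihood test of the spike against the mean of the 3 tissues, 13069 merged clusters (9.74% of those tested) were higher in the spike and 282 (0.21%) were lower, at an adjusted p below 0.05 and a log2 fold change of at least 1 in size. They are called spike-high and spike-low below.

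Most spike-high clusters were almost silent elsewhere. The spike had the highest mean of the 4 tissues at 12255 of them (93.8%), and 10625 (81.3%) had no cluster in another tissue. Both spike libraries exceeded all 9 others at 11454 spike-high clusters, where 14779 merged clusters (11%) did so in all. At 8008 spike-high clusters no tag was found in the 9 other libraries, and these are all of the spike clusters with that pattern. A cluster kept only through its spike tags had to be higher in the spike, so this count supports no difference. Of the 8008, 7304 had at least 10 spike tags, 2755 at least 100 and 95 at least 1000. The spike mean did not exceed the 0.377 RPM that 0 tags allow in the other groups at 601 of the spike-high clusters. The fitted median log2 fold change was 7.20 at spike-high clusters, -7.79 at spike-low clusters and -1.46 at all clusters. With groups at 0 tags set to the level that 3 tags per library would give, the medians of the log2 ratio of mean RPM were 3.16, -7.35 and -0.44.

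The size of the spike-high set rested on how libraries were grouped and filtered. DESeq2 called 419 clusters higher in the spike, edgeR with its own low-count filter 3685, and edgeR with the other 9 libraries as 1 group 211. Without root replicate 1 it called 1372 and without root replicate 2 it called 1295. Without spike replicate 2 the number was 8623. In all, 407 clusters were called in every fit on the same merged clusters but the 1-group fit, each left-out library included. Fits on clusters built with other joining distances or minimums were compared by count only. The 407 clusters had a median of 58.6 RPM and at least 18.9 RPM in the spike. Of them, 394 had both spike libraries above all 9 others, and 301 had no cluster in another tissue. These 301 were kept only through their spike tags, so their calls support no difference.

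Against each tissue alone the calls were fewer. Higher in the spike were 613 clusters against seedling (0.457%), 911 against embryo (0.679%) and 160 against root (0.119%), and lower were 347 (0.259%), 270 (0.201%) and 87 (0.0648%). Only 33 clusters (0.0246%) were higher in the spike against all 3 tissues, and 3 (0.00224%) were lower. All 33 belong to the 407. These numbers moved with single libraries: without spike replicate 2 they were 170 higher and 37 lower against seedling, 383 and 23 against embryo and 14 and 2 against root, and without root replicate 2 they were 2166 and 1271 against seedling and 2531 and 608 against embryo. Of the 33, 10 lie on A chromosomes, 12 on B and 11 on D, with 14 (42.4%) on the group 2 chromosomes and none on groups 5 and 7. Of all merged clusters, group 2 holds 16.5%, group 5 holds 15.5% and group 7 holds 14.1%. Most of the 33 had too few tags elsewhere to form a cluster there. For these a higher spike level was built in, so their calls only describe them.

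The smallest adjusted p of all (6A 588230306, described below) belonged to a cluster that seedlings used more than the spike. Among spike-high clusters with both spike libraries above all 9 others, 5 of the 6 with the smallest p were strong in the spike and near 0 elsewhere. These 5 were kept as clusters only through their spike tags. A higher spike level was thus built in, and their p-values and intervals only describe them. On chromosome 3B (385143550 to 385143590, minus strand) there were 5597 and 20125 spike tags, or 920 and 825 RPM, against 3 tags in the 9 other libraries together. The ratio of pooled RPM was 26231, with a 95% counting interval of 8975 to 127205 (adjusted p = 0.000166, edgeR). On 3D (29620534 to 29620632, plus strand) the spike libraries had 6271 and 16992 tags, against 1 tag elsewhere (adjusted p = 0.000166, edgeR). That the groups did not overlap was a condition of this list. The pair differed in chromatin: the 3B cluster lay in an 866 bp JW1 H3K4me3 peak, and the 3D cluster was 9714 bp from the nearest one.

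Further clusters of this kind lay on group 2 and on 3A. The 2D cluster at 633836316 (minus strand) had 419 and 574 RPM in the spike and 3 tags elsewhere, and the one at 577547479 (2D, plus strand) had 444 and 448 RPM and 1 tag elsewhere. On 2A (81658387, minus strand) the spike libraries reached 342 and 488 RPM with 1 tag elsewhere. The 3A cluster at 431128377 (minus strand) was the exception among these 6, since seedlings used it too. It had 363 and 324 RPM in the spike, 9.33 to 19.9 RPM in seedlings and at most 1 tag in any embryo or root library. Adjusted p-values for these 4 clusters were 0.000166 to 0.000212 (edgeR).

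**Figure D1:**
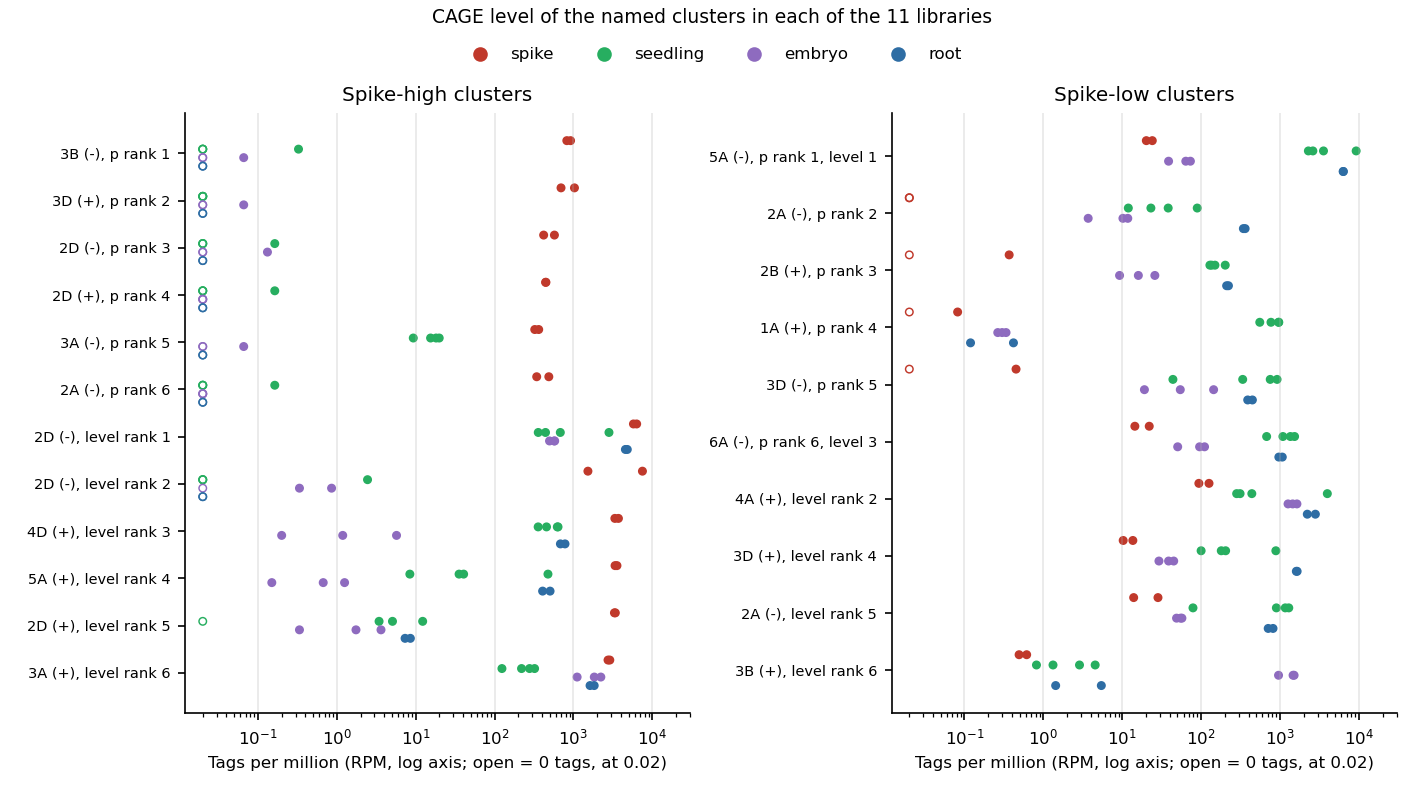
CAGE level (RPM, log axis) of the named spike-high and spike-low clusters, 1 point per library, in spike, seedling, embryo and root, with open points for libraries at 0 tags. Both spike points lie above all 9 others in the spike-high panel and below them in the spike-low panel.

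Among the spike-high clusters with both spike libraries above all others, 4 of the 6 strongest were also used in other tissues and 2 were nearly confined to the spike. The cluster on 2D at 472945666 (minus strand) had 6335 and 5768 RPM in the spike, against 358 to 2823 RPM in seedlings, 498 to 579 RPM in embryos and 4563 and 4818 RPM in roots. The roots came close to the spike, and the log2 fold change was 2.11 ± 0.60 (SE; adjusted p = 0.0348, edgeR). The call was lost without spike replicate 1 (edgeR adjusted p = 0.0824) or 2 (0.231), without embryo replicate 1, 2 or 3 (0.0674, 0.127 and 0.0583) and in DESeq2 (0.656). On 3A (710830026, plus strand) the spike had 2747 and 2892 RPM, against 124 to 322 RPM in seedlings, 1114 to 2227 RPM in embryos and 1625 and 1834 RPM in roots (log2 fold change 1.75 ± 0.43 SE, adjusted p = 0.0238, edgeR). Here the call was lost without spike replicate 2 (edgeR adjusted p = 0.259), embryo replicate 2 (0.0566), root replicate 1 (0.0936) or root replicate 2 (0.106), and in DESeq2 (0.732).

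Others of the strongest were lowest in embryos. On 4D (88700540, plus strand) the spike had 3353 and 3719 RPM, against 357 to 638 RPM in seedlings, 0.200 to 5.72 RPM in embryos and 782 and 684 RPM in roots (adjusted p = 0.000638 in edgeR and 0.0594 in DESeq2). The 5A cluster at 569452116 (plus strand) showed the same order of embryo and root. It had 3564 and 3373 RPM in the spike, 8.44 to 476 RPM in seedlings, 0.150 to 1.26 RPM in embryos and 506 and 407 RPM in roots (adjusted p = 0.00553, edgeR).

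The 2 nearly confined to the spike both lay on 2D. The cluster at 586696892 (plus strand) had 3312 and 3398 RPM in the spike and at most 12.3 RPM in any other library (adjusted p = 0.000998, edgeR). It placed 91.2% of its spike signal on the single base 586696905 and lay 3004 bp from the nearest H3K4me3 peak. The cluster at 81150327 (minus strand) had 7497 and 1527 RPM in the spike, the widest gap between the spike replicates among the named spike-high clusters. All other libraries together had 29 tags there (adjusted p = 0.000665, edgeR). It was kept only through its spike tags, so this p-value only describes it.

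Without any tag elsewhere, the highest cluster was on 6A at 65073906 (minus strand), with 2151 and 10210 spike tags, at least 1023-fold above the level that 3 tags per library would give. On 2B, clusters at 695116495 and 132828394 (both minus strand) were at least 862-fold and 828-fold higher. The contrast is against a mean of 3 tissues, and at 572 spike-high clusters seedlings were the highest tissue, 113 were highest in embryo and 129 in root. On 6A (588230306, plus strand) the spike averaged 1249 RPM, against 10051 RPM in seedlings, 1.01 RPM in embryos and 1.66 RPM in roots.

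At 3 of the 33 clusters, one on each group 1 chromosome, shape and level matched closely. The 1B cluster (317587031 to 317587171, minus strand) had 12281 and 41136 spike tags, the 1A cluster (287686643 to 287686783, plus strand) 9910 and 36492, and the 1D cluster (222015909 to 222016048, plus strand) 7826 and 28927. Their widths were 141, 141 and 140 bp and their spike means 1852, 1562 and 1236 RPM, with 11 to 15 tags in all other libraries together. Aligned on their strongest base and with that base left out, the tag profiles correlated at r = 0.991 for 1B and 1A (77 positions), 0.965 for 1B and 1D (69 positions) and 0.941 for 1A and 1D (74 positions). The points are neighbouring bases of the same libraries, and whether the 3 loci are homoeologous was not tested. This set was chosen with its profiles known. Profiles matched as closely at 3 group 2 clusters, of 10 bp (2B 387698472), 45 bp (2A 411950202) and 43 bp (2D 318910520). There r was 0.994 for 2B and 2A, 0.986 for 2D and 2A and 0.974 for 2D and 2B.

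**Figure D2:**
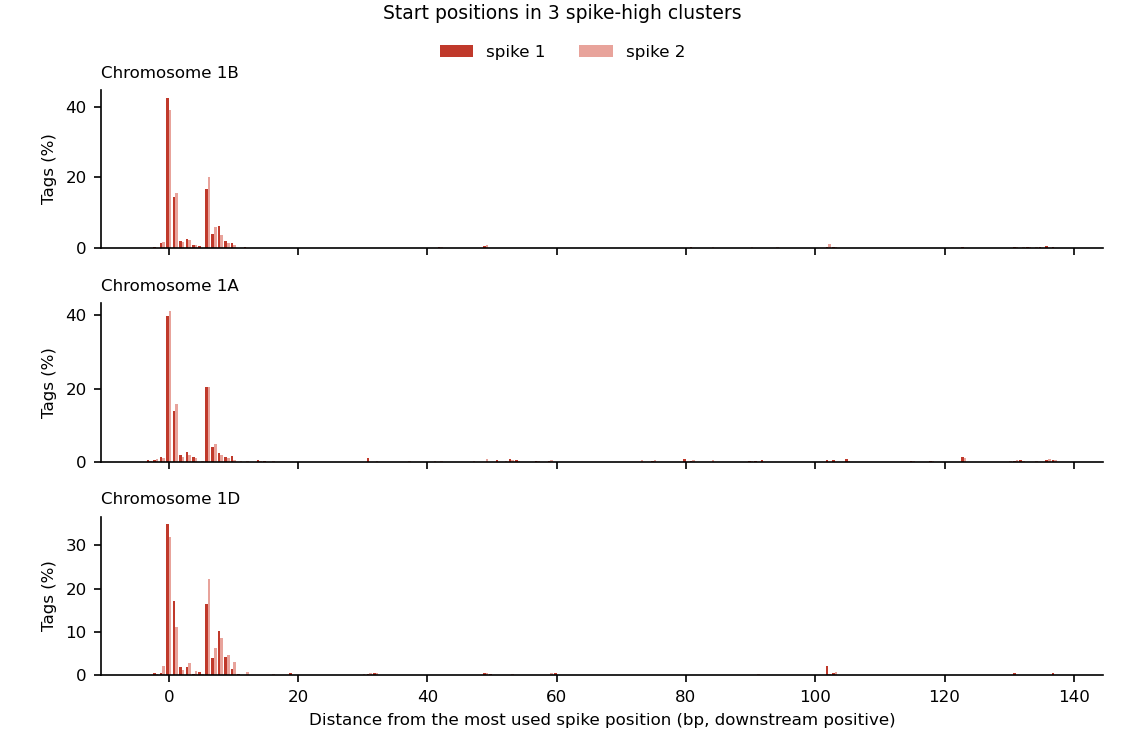
Spike tags per base (share of the cluster's tags) against distance from the strongest base in transcription direction for the 1B, 1A and 1D clusters of 141, 141 and 140 bp, with a bar for each spike replicate. In all 3 clusters the next most used bases lie 1 and 6 bp downstream of the strongest.

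Stray tags of the 33 clusters touched many clusters in only 2 libraries. Seedling replicate 3 had tags at 21 of the 33 clusters (126 tags) and embryo replicate 1 at 25 (65 tags), against 0 to 3 clusters in each of the 7 other non-spike libraries. Tag totals did not follow this, but they came mostly from a few clusters that the tissue itself used. Seedling replicates 1, 2 and 4 had 240, 147 and 274 tags, all at 3A 431128377 and 3D 303397600. Seedling replicate 3 had tags at both of these as well. The root libraries had 42 and 70 tags, all but 3 of them at 3D 303397600 and 2A 9142128. These totals therefore say nothing about the stray tags at the other clusters. The part of the stray tags in the results was not tested.

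Most spike-low clusters were active in several other tissues. Root was the highest tissue at 118 of the 282, seedling at 104 and embryo at 60, 135 had clusters in 2 other tissues and 104 in all 3. No spike tag was found at 188. Without spike replicate 1 or 2 the count of spike-low clusters was 60 or 47, without embryo replicate 3 it was 144 and without seedling replicate 4 it was 178. Both spike libraries lay below all 9 others at 42, where 138 merged clusters (0.103%) did so in all.

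The smallest p among these 42 was at 5A 656045160 (minus strand), with 20.2 and 24.1 RPM in the spike, against 2291 to 9239 RPM in seedlings, 38.7 to 73.2 RPM in embryos and 6336 and 6348 RPM in roots. Embryos were also low there, though above both spike libraries, and the adjusted p was 0.00559 (edgeR). On 2A (184552127, minus strand) there were 0 spike tags, against 11.9 to 89.3 RPM in seedlings, 3.70 to 11.8 RPM in embryos and 344 and 362 RPM in roots. The other tissues were at least 435-fold higher than 3 tags per spike library would give (adjusted p = 0.00901, edgeR).

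The 2B cluster at 184365838 (plus strand) had 0 and 9 spike tags, against 129 to 202 RPM in seedlings, 9.26 to 25.9 RPM in embryos and 211 and 222 RPM in roots (adjusted p = 0.0101, edgeR). With the 2A cluster and 3D 541632636 (minus strand; 0 and 11 spike tags), it made up the 3 clusters lower in the spike than in each tissue. Other low clusters belonged mainly to a single tissue. On 1A (575872785, plus strand) the spike had 0 and 2 tags, against 554 to 965 RPM in seedlings and at most 0.418 RPM in embryos and roots. On 3B (421612409, plus strand) the spike had 0.493 and 0.615 RPM, against 959 to 1510 RPM in embryos and 0.818 to 5.43 RPM in seedlings and roots. Its adjusted p was 0.0238 (edgeR), and 0.053 without spike replicate 1. The 6A cluster at 529601437 (minus strand) was low in embryos too, with 14.5 and 22.0 RPM in the spike, 677 to 1531 RPM in seedlings, 50.5 to 111 RPM in embryos and 967 and 1070 RPM in roots (adjusted p = 0.0159, edgeR).

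Spike-high clusters were narrow by their tagged span, and this followed level. A width of at most 10 bp held for 58.3% of spike-high clusters (median width 8 bp), 8.51% of spike-low clusters (38.5 bp) and 32.2% of spike clusters that were not called (19 bp). In the 33 clusters it was 12.1% (27 bp). This order depends on the measure. By the span that holds 10% to 90% of the signal in all 4 tissues, at most 10 bp was found at 71.8% of spike-high clusters, 64.9% of spike-low, 56.1% of not-called clusters and 84.8% of the 33. Width counts positions with a tag and so grows with tag number, and at a mean of at most 1 RPM 75.8% of spike-high and 51.6% of not-called clusters were this narrow, against 12.4% and 3.50% above 100 RPM. At every level the spike-high share was the larger. The width is that of the merged cluster over all 4 tissues, so tags elsewhere can widen it. Since width and call come from the same tags, these shares are a description. The 10% to 90% span of the spike signal alone was read with at least 10 tags in each spike library. Its medians were 3 bp (spike-high) and 4 bp (not called) from 1 to 2 RPM. From 20 to 100 RPM they were 8 and 12 bp, and above 100 RPM 6 and 9 bp.

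How often both spike libraries had the same strongest base followed level. With at least 10 tags in each, they shared it at 39.4% of spike-high clusters, 40.8% of all spike clusters and 87.9% of the 33. Above 100 RPM it was shared at 91.7% of spike-high and 83.8% of not-called clusters. With at least 50 tags, the spike libraries shared it at 48.8% of 11228 clusters, and the root libraries at 57.4% of theirs.

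Where both tissues had at least 50 tags in each library, the strongest base of the spike was that of seedling at 69.5% of 2082 clusters, of embryo at 69.2% of 2449 and of root at 66.2% of 5984. Among clusters whose libraries agreed on it within each tissue, the spike matched seedling at 98.3% of 638, embryo at 96.7% of 912 and root at 92.6% of 2560. It was over 20 bp away at 4, 8 and 46 clusters. Agreement was required of all 4 seedling, 3 embryo or 2 root libraries, so these numbers cannot be compared between the tissues. Against root, the spike start was downstream at 17 of the 46 and upstream at 29.

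Of 259 clusters with a stable strongest base in all 4 tissues, 1 was shifted by over 20 bp against all 3, at 4A 732968120 to 732968361 (plus strand). The spike's main start was at 732968124, 73 bp upstream of 732968197, which the other tissues used. The spike libraries had 37.4% and 30.1% of their tags at 732968124, against 4.71% to 19.9% in seedlings, 13.1% to 19.1% in embryos and 19.3% to 21.2% in roots. The whole cluster averaged 287 RPM in the spike, 553 RPM in seedlings, 1441 RPM in embryos and 885 RPM in roots. It was singled out after its values were seen.

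The share of spike-high clusters in JW1 spike peaks was at or below that of all clusters for both marks and below that of the other spike clusters. At least 1 bp of an H3K4me3 peak was shared by 55.6% of spike-high clusters, 47.2% of spike-low clusters and 69.4% of spike clusters not called, and by 55.8% of all merged clusters. For H3K9ac the shares were 39.9%, 29.4%, 56.9% and 44.2%. Neither mark was found at 5641 spike-high clusters (43.2%), 50.7% of spike-low and 29.8% of not-called clusters. Counting clusters within 500 bp of a peak gave 71.6% of spike-high and 66.3% of spike-low clusters for H3K4me3, and 62.5% and 56.0% for H3K9ac.

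The same order was found within each level. Between 20 and 100 RPM, 58.8% of 1045 spike-high clusters and 76.7% of 2803 not-called clusters overlapped an H3K4me3 peak, and 35.6% and 63.4% an H3K9ac peak. Above 100 RPM the shares were 66.9% of 338 and 75.8% of 629 for H3K4me3, and 40.8% and 64.4% for H3K9ac. Of the 33, 18 overlapped H3K4me3 (54.5%) and 6 overlapped H3K9ac (18.2%). The peak lists come from another cultivar, and no test across clusters was run.

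**Figure D3:**
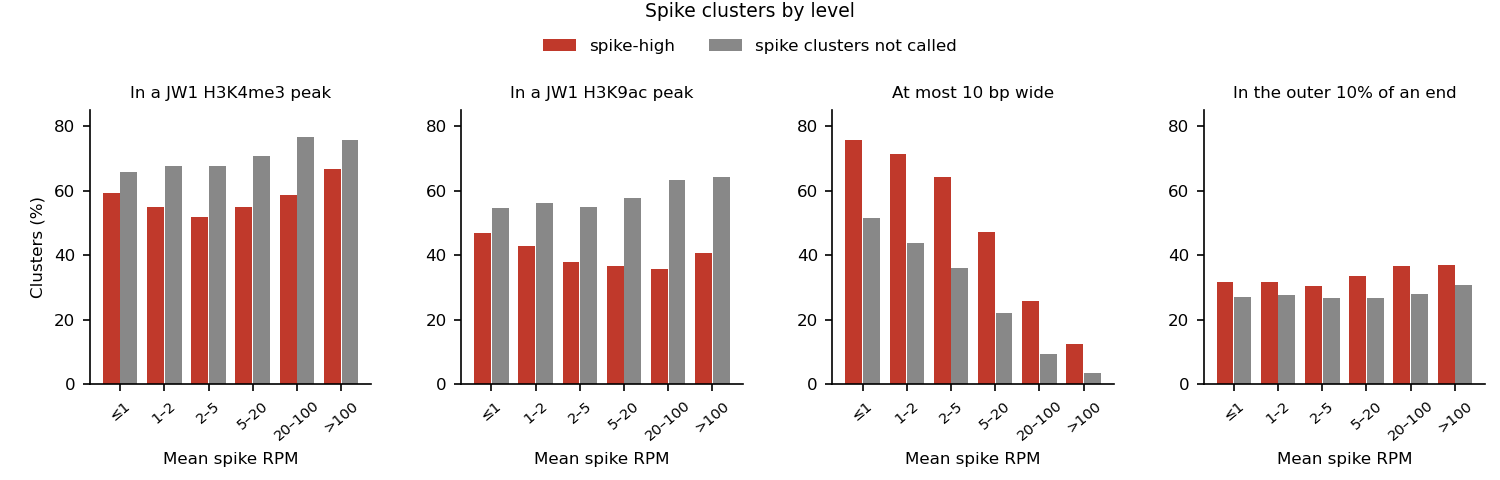
Share of clusters (%) by mean spike RPM for spike-high clusters and spike clusters not called: overlap with a JW1 H3K4me3 or H3K9ac peak, a width of at most 10 bp, and location in the outer 10% of a chromosome end. The spike-high bars are lower for both marks and higher for narrow width at every level.

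The same overlap was read for clusters found in a single tissue. For H3K4me3, spike-only clusters had the highest share of the 4 tissues up to 5 RPM (56.5%, against 47.9% of seedling-only, 43.4% of embryo-only and 55.5% of root-only clusters) and from 5 to 20 RPM (52.5%, against 48.6%, 42.1% and 39.4%). Above 20 RPM, which holds 512 of the 15513 spike-only clusters, they had 48.4%, against 57.8%, 55.5% and 20.3%. For H3K9ac the spike-only shares were 44.0%, 35.2% and 25.8% over these levels, against 37.8%, 37.2% and 42.0% of seedling-only, 32.9%, 27.2% and 24.7% of embryo-only and 44.4%, 28.1% and 10.2% of root-only clusters. Spike-only clusters had the highest H3K9ac share at no level.

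**Figure D4:**
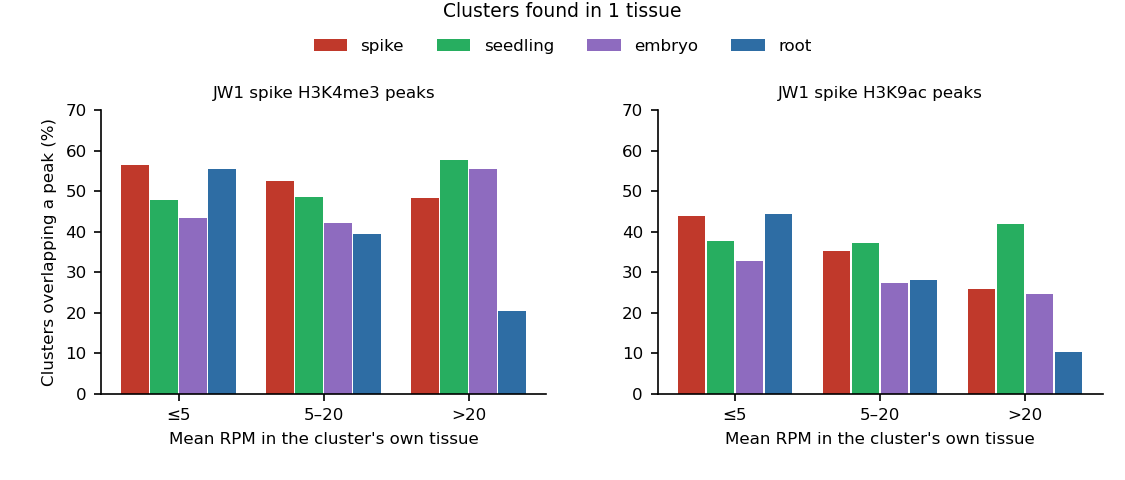
Clusters present in a single tissue that overlap a JW1 spike H3K4me3 peak or H3K9ac peak (%), by their own level (RPM), for spike, seedling, embryo and root. Above 20 RPM the spike-only share is 48.4% for H3K4me3 and 25.8% for H3K9ac, and the root-only share is the lowest for both.

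Inside a peak, spike-high starts lay further from its upstream edge. The median start was 27.2% of the way into an H3K4me3 peak for spike-high clusters, 11.4% for spike-low and 19.9% for not-called clusters. The median distances from the edge were 195 bp for spike-high and 131 bp for not-called clusters. Into an H3K9ac peak the medians were 28.9%, 14.7% and 17%.

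Divergent pairs, with a minus-strand cluster ending at most 400 bp upstream of a plus-strand one, involved 5.45% of spike-high clusters, 7.45% of spike-low, 6.10% of not-called spike clusters and 6.31% of all clusters. The calls of partners were then read. Of 712 paired spike-high clusters 264 (37.1%) had a spike-high partner, against 10.4% of 1849 paired not-called spike clusters and 8.18% of 8470 paired clusters in all. None of the 21 paired spike-low clusters had a partner with a spike cluster.

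The strongest pairs called on both strands were lopsided. On 6A the minus-strand member (65133422) had 209 and 280 RPM in the spike and the plus-strand member (65133531, 86 bp away) had 6.41 and 4.14 RPM, against 2 and 0 tags elsewhere. On 6D the plus-strand member (57853074) had 152 and 110 RPM and the minus-strand member (57853072) 4.11 and 4.67 RPM, against at most 4.71 RPM elsewhere. The weaker members lost their calls without root replicate 1 or 2, with edgeR adjusted p-values of 0.0936 and 0.106 on 6A and 0.121 and 0.137 on 6D, and the plus-strand member on 6D had an adjusted p of 0.0554 in DESeq2. In adjacent same-strand clusters at most 500 bp apart, 1678 of 50647 pairs were both spike-high, 3 were both spike-low and 1 had opposite calls.

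On the chromosomes, spike-high clusters were spread over all 3 subgenomes, with 4264 on A, 4291 on B, 4328 on D and 186 on unplaced sequence. Per chromosome, 8.47% (1B) to 10.8% (7D) of merged clusters were spike-high. The outer 10% of either chromosome end held 32.3% of spike-high clusters, 41.8% of spike-low, 27.1% of not-called spike clusters and 31.0% of all.

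Weighted by tags, 8 properties were compared between the libraries. With 2 libraries against 9, a property that separates them fully on its own cannot fall below an adjusted p of 0.145, so a miss says nothing about likeness. Subgenome A took 34.1% and 34.4% of the chromosomal tags in the spike, against 30.9% to 33.6% in the 9 other libraries, a mean difference of 1.98 percentage points. The spike was the highest in 2 of 2 libraries (two-sided exact permutation test, p = 0.018, the smallest that 55 splits allow, adjusted p = 0.145 over 8 shares). The distal ends took 33.8% and 34.0% in the spike, against 35.4% to 42.0% elsewhere, a difference of -4.32 points (exact p = 0.036, adjusted p = 0.145). With each tagged base counted once, the differences were 0.18 points for subgenome A and -0.15 points for the distal ends. The strongest spike cluster, on 5A (533278272, plus strand), was not called but counts toward subgenome A. It had 48087 and 47954 RPM in the spike, 10105 to 22889 RPM in seedlings and 33766 to 53160 RPM in embryos. Roots had 14493 and 13878 RPM there. The subgenome A difference without this cluster was not tested.

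For H3K4me3 peaks the spike shares were 58.3% and 57.6%, and the tissue means 57.9% in the spike, 58.4% in seedlings, 40.0% in embryos and 58.3% in roots. Only the embryo mean was below that of the spike. The difference from the mean of the 9 others was 5.66 points (exact permutation test, p = 0.60, adjusted p = 0.673). With each base counted once it was 2.09 points. For H3K9ac the spike had 43.0% and 42.5%, against means of 40.8% in seedlings, 28.7% in embryos and 40.7% in roots. The difference from the 9 others was 6.0 points (exact permutation test, p = 0.20, adjusted p = 0.339). With each base counted once it was 0.87 points. Narrow clusters took 13.3% and 12.0% of the spike's cluster tags, against means of 8.11% in seedlings, 9.23% in embryos and 13.3% in roots, and the difference from the 9 others was 2.98 points. Divergent pairs took 3.30% and 3.27%, against means of 5.53%, 3.46% and 3.32% in the same tissues, a difference of -1.06 points (adjusted p = 0.339 for both, exact permutation test). Subgenomes B and D differed by -1.67 and -0.31 points (adjusted p = 0.291 and 0.673, exact permutation test).

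**Figure D5:**
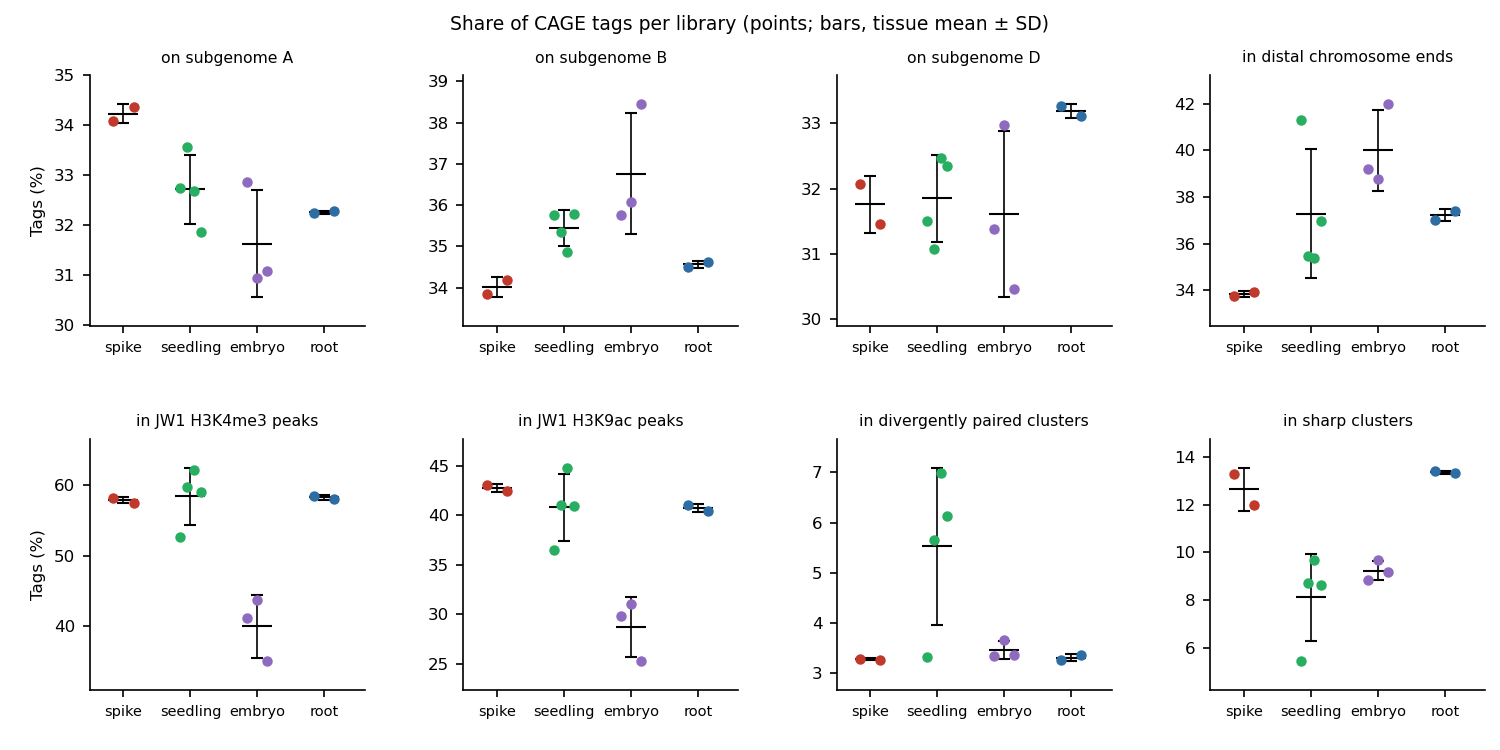
Share of tags (%) with each of the 8 properties in the 11 libraries, 1 point per library, with the mean and SD of each tissue as bars and axes that do not start at 0. The spike points lie above all others for subgenome A and below all others for subgenome B and the distal ends, and overlap other tissues in the H3K4me3 panel.

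Genes were assigned on chromosome 1A, where start sites listed with gene names could be matched within 100 bp on the same strand. Of 2133 clusters there, 188 (8.81%) were spike-high and 4 (0.188%) spike-low, against 534 of 5558 (9.61%) spike-high on the whole chromosome. The 188 belong to 171 genes. The RNA-seq of wild-type spikes (3 libraries) is labelled as the cultivar Fielder, while the study's methods name JW1 for the transgenic lines it was compared with. It gave at least 1 FPKM in all 3 libraries for 60.8% of these genes and 59.9% of the 1157 listed genes without a called cluster. At most 10 reads were found in root RNA-seq for 26.9% of the spike-high genes and 9.85% of the others, and in embryo RNA-seq for 26.3% and 14.2%. Root and embryo had 1 RNA-seq library each, from Chinese Spring.

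TraesCS1A02G162700 had 3 spike-high clusters in a row on the plus strand. The strongest had 637 and 564 RPM in the spike and at most 0.896 RPM elsewhere (adjusted p = 0.00038, edgeR). That cluster was kept only through its spike tags, so its p-value only describes it. The RNA-seq values of this gene were 22.3, 0 and 52.1 FPKM in the spike and 0 reads in root and embryo. TraesCS1A02G160300, at the 1A cluster of the group 1 set, had 1629 and 1496 RPM in the spike but only 1.05, 0.083 and 7.56 FPKM. The rest of the 4 smallest p at listed 1A starts were TraesCS1A02G092800 and TraesCS1A02G177500. The former had 0, 0 and 3.30 FPKM in spikes and 0 reads in root. The latter had over 1 FPKM in all 3 spike libraries, but 526 reads in root despite 0 root tags. TraesCS1A02G256500 is not among these 4 and was picked with its values known. The study's annotation matches it to the rice gene LOC_Os02g32080. It had 977 and 2257 spike tags against 69 elsewhere (adjusted p = 0.00473, edgeR). Its RNA-seq gave 461, 301 and 73.3 FPKM in spikes, 52 reads in root and 0 in embryo.

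Of the 4 listed genes with a spike-low cluster, 3 had 0 spike tags there and below 1 FPKM in every spike library. The other one had 85 and 69 spike tags and 13 to 83 embryo tags, against 3525 to 8379 in seedlings and 12100 and 22617 in roots. Its RNA-seq gave 3.40, 7.83 and 2.39 FPKM in spikes. The 2 named here were chosen after their values were seen. TraesCS1A02G248700 had 0 tags in both spike libraries, against 5471 and 9230 tags in roots (adjusted p = 0.0496, edgeR). Seedlings had 0 to 28 tags there and embryos 0 to 3, so roots alone used it strongly. Its RNA-seq gave 0.970, 0 and 0.105 FPKM in spikes against 3326 reads in root. TraesCS1A02G372700 had 0 spike tags, against 441 to 2213 tags in embryos (adjusted p = 0.0445, edgeR). Seedlings had 0 to 35 tags there and roots 30 and 41, so embryos alone used it strongly. Its RNA-seq gave 0.124, 0 and 0 FPKM in spikes against 29986 reads in embryo.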

How the data were processed

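The CAGE files hold tag counts per base and strand. The authors trimmed adaptors and the leading bases, removed organelle and ribosomal reads, mapped the remainder with Bowtie2 to the IWGSC RefSeq v1.0 genome, kept uniquely mapped reads and counted 5′ ends, so near-identical copies of a sequence are under-represented. The deposited JW1 peak files were used as positions only (other values in them were not used), and their peak caller was MACS. The deposited RNA-seq tables hold read counts for root and embryo and FPKM values for wild-type spikes, and were set beside CAGE on chromosome 1A without a test.

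Chromosome parts were joined into whole-chromosome coordinates of the same build. Counts in merged clusters were fitted in edgeR 4.0.16 (R 4.3.3) with 1 coefficient per tissue over 11 libraries, TMM factors, no low-count filter and Benjamini-Hochberg adjustment over 134180 clusters. DESeq2 1.42.0, other normalizations, filters, joining distances, a replicate block and leaving out each library were the alternatives. On simulated counts for the same 134180 clusters, 0 of 40 clusters raised 4-fold were called, 11 of 40 raised 64-fold, 37 of 40 raised 1024-fold and 0 of 40 at either of the lowered levels, with 0 unchanged clusters called. Unchanged clusters were simulated with the same mean RPM in all 11 libraries and without the cluster filter. The 0 false calls therefore do not speak for real clusters kept only through their spike tags. Shares of tags were compared between 2 spike and 9 other libraries by two-sided exact permutation. Named clusters were the 6 with the smallest p and the 6 with the highest level in each direction, the 4 smallest p at listed 1A start sites, 2 divergent pairs and 2 clusters each in both and in neither peak kind, all with both spike libraries above or below all others. No cluster of the actin gene in that rule lay within 100 bp of its listed start. Members and lists were chosen with earlier results of these data known. Intervals cover counting error only, since tags carry no molecular identifiers.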

Additional observations from a re-analysis of the deposited data

Results flagged for a closer look

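At 5 named clusters the level in seedling replicate 1 stood apart from the other 3 seedling libraries by Dixon's test, out of 25 such groups tested. The limit is passed about 1 time in 20 by independent normal values. These groups share the same libraries and use untransformed values, so that rate is no measure for the 5. At 2D 472945666 it had 2823 RPM, against 358 to 682 RPM in the others. At 5A 569452116 it had 476 RPM, against 8.44 to 40.6 RPM, and at 5B 550156157, a spike-high cluster in neither peak kind, 445 RPM against 0.359 to 15.1 RPM. At the spike-low clusters 4A 733000913 and 3D 122455591 it had 3983 and 887 RPM, against 282 to 440 RPM and 100 to 205 RPM. No named cluster lost its call without that library.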

How the results depend on the processing

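Spike-high calls numbered 13069, and 3685 with edgeR's low-count filter, 211 with the other 9 libraries as 1 group, 1272 with a replicate block, 419 in DESeq2 and 1295 to 13546 with a library left out (lowest without root replicate 2). Spike-low calls numbered 282, and 135 with the filter, 0 with 1 group (edgeR, 1810 at an unadjusted p under 0.05), 113 with the block and 47 to 413 with a library left out (lowest without spike replicate 2). Requirements added after seeing the data gave 33 higher and 3 lower against each tissue, 407 higher in every fit on the same clusters but the 1-group fit and 42 below all 9 libraries. DESeq2 gave 1341 higher and 4965 lower against seedling, 1636 and 1443 against embryo and 762 and 737 against root. RLE factors gave 609 lower against seedling and 155 against root, the filter 20 higher and 9 lower against root, and the block 536 and 360 against root. Leaving out a library gave 170 to 2166 higher and 37 to 1279 lower against seedling, 183 to 2531 and 23 to 608 against embryo, and 14 to 359 and 2 to 291 against root. The difference on subgenome B was 0.060 points with each tagged base counted once, and that on subgenome D 0.0043 without spike replicate 2 (range -0.62 to 0.0043). The cause was not tested. Replicate numbers did not pair libraries (median r of deviations 0.0018). No named cluster changed direction, and 5 of 31 missed the threshold with the block, 5 of 26 in DESeq2 and 5 without either spike library. Depth limits low clusters: 911 spike-high clusters (6.97%) had at most 10 spike tags, near the 6.30% of all merged clusters with a spike cluster.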
